A study of Rattus norvegicus with 4 samples.

Results

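The proteasome genes of a rat alveolar macrophage line were examined in unstimulated culture. They were taken as all array probes, controls aside, whose gene name in the files begins with Psm, a letter from a to g and a number. This rule used names alone and no measured value, though the members were chosen with earlier results of these data known. It gave 57 probes for 50 gene names, out of 45598 probes and 18830 named genes on the array. Of the 50 names, 31 are constitutive subunits of the core and regulatory particles and 5 are the inducible genes Psmb8, Psmb9, Psmb10, Psme1 and Psme2. The other 14 comprise assembly factors, other activators, an inhibitor, a pair of tissue-restricted subunits and 3 further names that match by spelling. The last are Psma3l, Psme1-ps1 and Psmc3ip. Psmc3ip encodes a recombination factor and no proteasome subunit. The probe of Psma3l also lists the transcript of Psma3 among its accessions.

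The cells were NR8383, a line derived from alveolar macrophages of a normal rat, kept in serum-containing medium in which about 50% of the cells adhered and the rest floated. All 4 samples form 1 group, the submerged control after 20 passages, and the design text describes them as biological replicates. No genetic change or stimulus is recorded for them, and the labels give 4 h in one place and 48 h in another for the culture time, so no duration is attached to the values. As a line, the samples hold 1 origin of cells, and no second condition was analysed here. Differences below are therefore between replicate cultures.

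The proteasome is a barrel-shaped protease that degrades proteins marked with ubiquitin. Its core particle is a stack of rings of alpha and beta subunits, and a few beta subunits carry the catalytic sites. The regulatory particle binds ubiquitin chains and unfolds the substrate with a ring of ATPases. Interferon-gamma is known to induce alternative catalytic subunits, which replace the constitutive ones in newly built cores to form the immunoproteasome, and the PA28 activator. In macrophages and other antigen-presenting cells this form favours peptides that bind MHC class I.

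Cy3-labelled RNA was read on Agilent arrays of 1 colour, in which the fluorescence of a spot reports the abundance of the matching transcript. A level here is the log2 signal of a probe relative to the 75th percentile of its own array, and an error is the SD over 4 replicates. That percentile was 1317, 1489, 1179 and 958 fluorescence units on replicates 1 to 4. Precision is limited by there being 4 arrays. Spike-in control RNAs stood 1.86, 1.87, 2.46 and 2.85 above it. A probe was detected on an array when it was well above background there, and a gene was detected when at least 1 of its probes was so on all 4 arrays. Probes differ in how strongly they bind, so the level of one gene is not set against that of another. Genes are compared by detection, by spread and by deviation from their own mean. A replicate is called high or low relative to the other genes of its array, since with spike-in scaling members and all detected genes alike were lower on replicates 3 and 4. In RNA from a whole culture, fewer cells with a transcript and less transcript per cell cannot be told apart.

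Nearly the whole proteasome was expressed in these macrophages. Of the 50 genes, 48 were detected on all 4 arrays, beside 54.9% of all named genes. All 31 constitutive subunits were detected. So were all 5 inducible genes, Psmb8, Psmb9, Psmb10, Psme1 and Psme2. The 2 genes that were not detected on every array are Psma8 and Psmb11, which encode core subunits known from testis and from the thymic cortex. No spot of any Psm probe was saturated, and 12 spots over the 4 arrays were left out as outliers.

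The inducible catalytic subunits come first. Their probes are shown here, with those of the constitutive counterparts that they replace, because the comparison rests on which transcript each 60-base probe binds. The sequences are those of the array design, written 5′ to 3′. For Psmb10 and for the brighter Psmb8 probe the last 30 bases are given, with the polyadenylation signal AATAAA in capitals, and other probes are shown whole.
Psmb9: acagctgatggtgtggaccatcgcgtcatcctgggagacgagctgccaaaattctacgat
Psmb6: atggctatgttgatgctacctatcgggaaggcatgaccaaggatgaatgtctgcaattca
Psmb10: tgAATAAAtccaggagatacaaacacttaa
Psmb7: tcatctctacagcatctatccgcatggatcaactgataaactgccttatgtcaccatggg
Psmb8, brighter probe: gtacAATAAAagaaaaacagttctaaaaaa
Psmb8, dimmer probe: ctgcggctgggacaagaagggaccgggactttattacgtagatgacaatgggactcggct
Psmb5: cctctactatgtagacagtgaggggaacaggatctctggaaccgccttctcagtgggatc
On the rat assembly rn4, which the array uses, the Psmb9 probe lies on chromosome 20 from 4806341 to 4806400. The dimmer Psmb8 probe lies on the same chromosome from 4787006 to 4787484, a span longer than the probe, which is how a probe across a splice junction maps. The 2 probes are 18.9 kb apart. The brighter Psmb8 probe has no position in the files, and the array's description of its transcript mentions an apparent retained intron. The Psmb10 probe lies on chromosome 19 from 35777711 to 35777770. Among the constitutive counterparts, the Psmb6 probe whose sequence is shown lies on chromosome 10, the Psmb7 probe on chromosome 3, where it spans 18413231 to 18433105, and the Psmb5 probe on chromosome 15. No exon or UTR annotation of rn4 was used. Of all 57 probes, 11 span more than 60 bases on rn4, 3 have no position, and 7 hold AATAAA, which is 12.3% beside 9.04% of all probes.

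Psmb9 encodes the inducible subunit that takes the place of Psmb6, the caspase-like site. Its level was 2.53, 2.45, 2.48 and 2.26 on replicates 1 to 4. Replicate 4 was the lowest, and the mean was 2.43 ± 0.12 (SD, n = 4). Psmb8 replaces Psmb5, the chymotrypsin-like site, and its brighter probe read 4.79, 4.79, 4.75 and 4.61. Again replicate 4 was the lowest, and the mean was 4.74 ± 0.08. The dimmer Psmb8 probe, at 3.71, 3.71, 3.63 and 3.57, was lowest on the same replicate. Psmb10 replaces Psmb7, the trypsin-like site, and read 3.34, 3.42, 3.24 and 3.41, with its lowest value on replicate 3 and a mean of 3.35 ± 0.08.

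The constitutive counterparts were detected as well. Psmb6 was measured at 3.59, 3.69, 3.67 and 3.85 by its brighter probe, whose sequence is shown, and at 3.40, 3.54, 3.51 and 3.78 by the other. Both probes were highest on replicate 4. Psmb5 read 3.91, 3.98, 3.88 and 4.07, also highest on replicate 4. Psmb7 read 1.55, 1.58, 1.49 and 1.50, with an SD of 0.04. None of these 6 catalytic genes varied between replicates beyond what the test allows for its signal. In limma's variance test, an F test of each probe's variance against a prior that follows signal, the Benjamini-Hochberg adjusted p was 0.996 for Psmb5, Psmb6, Psmb8, Psmb9 and Psmb10 and 0.997 for Psmb7.

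PA28 is an activator that caps the core and opens it, and Psme1 and Psme2 encode its alpha and beta subunits. Their probes are shown as the other members of the inducible class. The Psme1 sequence is the first 30 bases of its probe and the Psme2 sequence is whole.
Psme1: ggtataacagaaaccttcctactcttgact
Psme2: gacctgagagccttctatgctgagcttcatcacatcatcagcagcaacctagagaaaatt
Psme1 read 3.74, 3.70, 3.82 and 3.82, a mean of 3.77 ± 0.06. Psme2 read 4.03, 4.08, 4.09 and 3.93, a mean of 4.03 ± 0.07. Psme1 was highest on replicates 3 and 4, and Psme2 was lowest on replicate 4, so the 2 subunits of this complex did not share a lowest replicate. Both had an adjusted p of 0.996 in limma's variance test. Their probes lie 7.32 kb apart on chromosome 15 of rn4, at 33715651 to 33715710 and at 33723033 to 33723182. The retrocopy name Psme1-ps1 had its own probe on chromosome 17, detected on all 4 arrays at 3.06 ± 0.07. Whether that probe also binds the transcript of Psme1 was not tested.

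Set against each other, the inducible and constitutive classes differed by at most 0.12 on the log2 scale from one replicate to another. For each replicate the median deviation of the 31 constitutive genes was taken from that of the 5 inducible genes. This difference does not change with a constant scale per array. It was 0.04, 0.03, 0.04 and -0.08 on replicates 1 to 4. Replicates 1 to 3 lay close together and replicate 4 was lower, a range of 1.09-fold. With means over members in place of medians the values were 0.06, -0.003, -0.001 and -0.06, and replicate 4 no longer stood apart. Of the inducible genes, 3 of 5 were lowest on replicate 4, beside 12 of 31 constitutive genes and 28.3% of all detected genes. The constitutive genes were lowest on replicate 1 in 14 of 31 cases, beside 23.7% of all detected genes, and on replicate 2 in 0 cases, beside 20.2%. Replicate 4 also had the lowest 75th percentile and the fewest detected probes, 20170, against 22415 on replicate 1, and the part of these in the result was not tested.

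**Figure D1:**
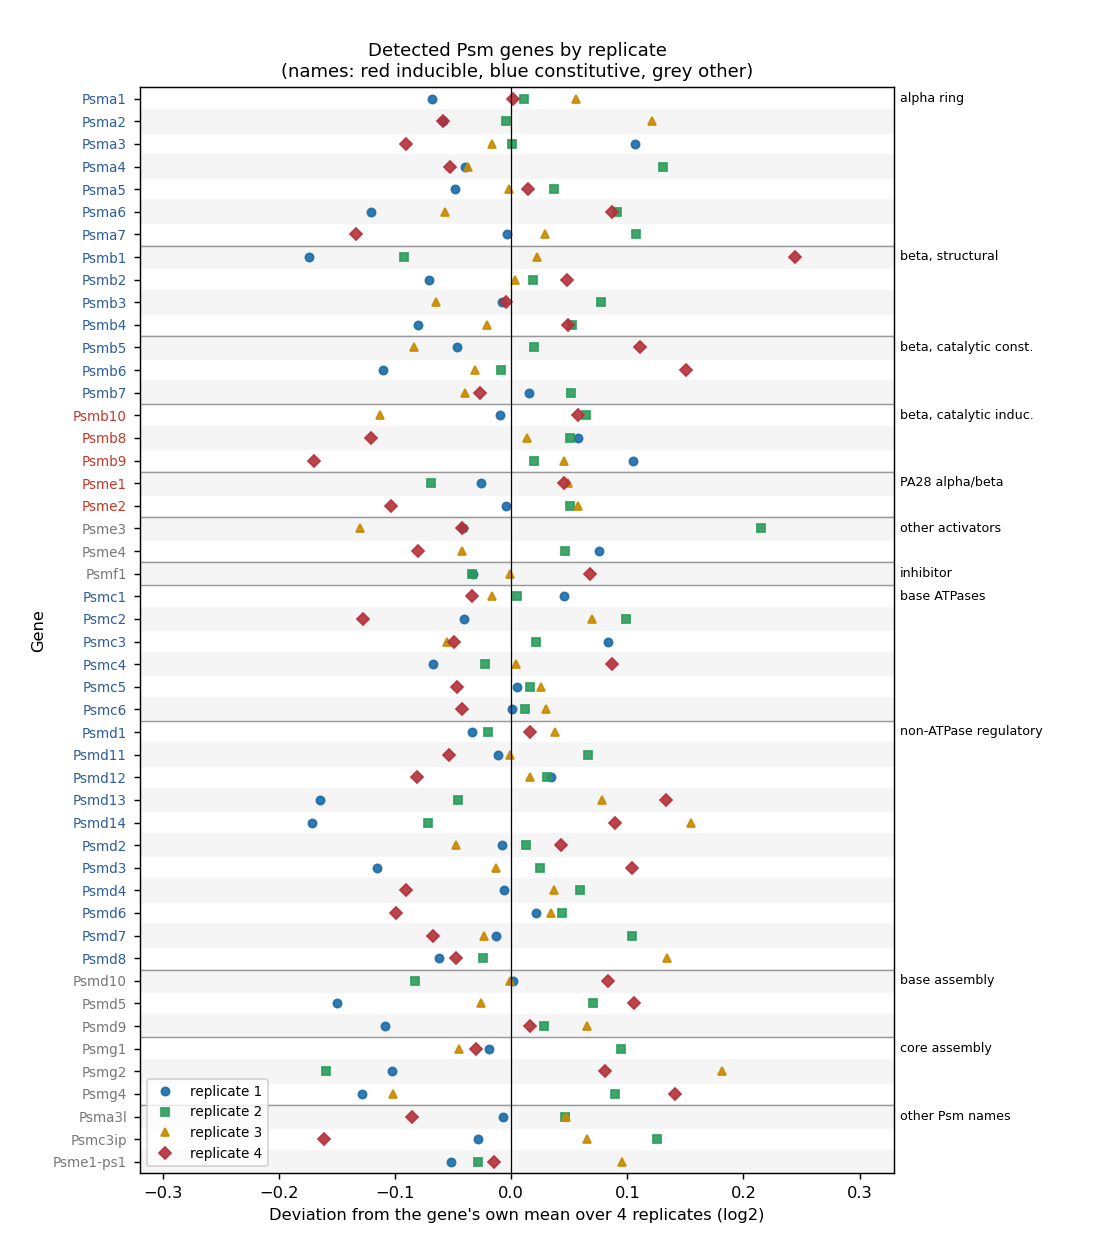
Deviation of each of the 48 detected Psm genes from its own mean over 4 replicates, in log2 units, with 1 point per replicate and genes grouped by role. Psmb9, Psmb8 and Psme2 have replicate 4 at the left, and Psmb1, Psmb6 and Psmb5 have it at the right. Neither class does so as a whole. The inducible Psmb10 and Psme1 have replicate 4 right of 0. Among constitutive genes it is the lowest in 12 of 31 and the highest in 8. No deviation passes 0.25 in size.

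Catalytic counterparts were also set against each other. The difference of deviations, Psmb9 minus Psmb6, was 0.22, 0.03, 0.08 and -0.32 on replicates 1 to 4. Replicate 4 stood below the others, and the range was 0.54, or 1.45-fold. Psmb8 minus Psmb5 was 0.10, 0.03, 0.10 and -0.23, with replicate 4 again the lowest and a range of 0.34, or 1.26-fold. Psmb10 minus Psmb7 was -0.02, 0.01, -0.07 and 0.08, and here replicate 4 was the highest, over a range of 0.16. The third counterpart pair therefore did not follow the others. Without replicate 4 the ranges were 0.19, 0.07 and 0.09.

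These pairs were chosen by known function after their values had been seen, and no test was made of them. Over all 155 pairs of 1 inducible and 1 constitutive gene the median range was 0.22, from 0.03 to 0.69. The Psmb9 and Psmb6 pair had rank 5, the Psmb8 and Psmb5 pair rank 33 and the Psmb10 and Psmb7 pair rank 118, counted from the widest. The widest was Psmb9 with the structural subunit Psmb1. Replicate 4 was the lowest in 80 of the 155 pairs. These were 29 of the 31 pairs of Psmb9, 24 of those of Psmb8, 21 of those of Psme2, 3 of those of Psmb10 and 3 of those of Psme1. Pairs of the same inducible gene reuse its 4 values, so these counts restate its own deviations and are not separate support. By their own levels Psmb9, Psmb8 and Psme2 were lowest on replicate 4, and Psmb10 and Psme1 were not.

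**Figure D2:**
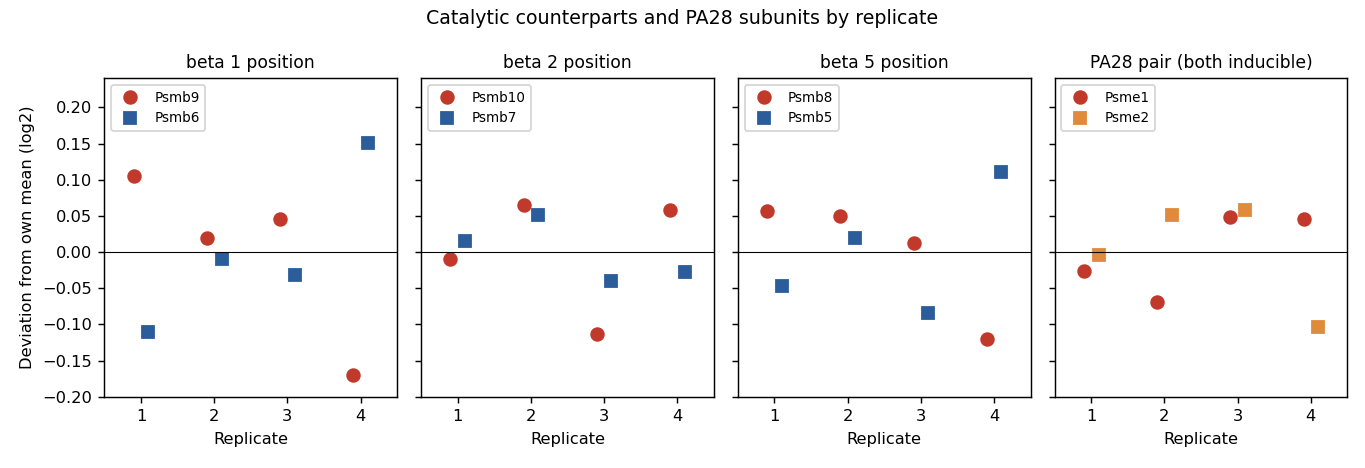
Deviation from own mean (log2) on replicates 1 to 4 for Psmb9 and Psmb6, Psmb10 and Psmb7, Psmb8 and Psmb5, and the PA28 subunits Psme1 and Psme2, 1 point per array. On replicate 4 Psmb9 lies at -0.17 and Psmb6 at 0.15, Psmb8 at -0.12 and Psmb5 at 0.11, while Psmb10 lies at 0.06 and Psmb7 at -0.03.

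Second probes bear on these values directly for 2 of the genes. The Psmb8 probes deviated by 0.06 and 0.05 on replicate 1 and by -0.12 and -0.09 on replicate 4, and at no replicate were they more than 0.04 apart. The Psmb6 probes deviated by -0.11 and -0.16 on replicate 1 and by 0.15 and 0.22 on replicate 4. With the dimmer Psmb6 probe the range of Psmb9 minus Psmb6 was 0.66, and with the dimmer Psmb8 probe that of Psmb8 minus Psmb5 was 0.30. On the arrays the 10 spots of the brighter Psmb8 probe had a median standard error of 0.01, and the SD between arrays was 7.52 times as large. For Psme1 and Psme2, also printed on 10 spots, that ratio was 4.20 and 4.62. It was not particular to the inducible genes. The constitutive Psma7, by its brighter probe, and Psmb4 had ratios of 8.22 and 4.19 on 10 spots, and Psma3l had 2.33. Repeat spots share labelling and hybridisation, so their standard error leaves those out.

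In other genes with a pair of probes the deviations lay further apart than the 0.04 of Psmb8 and the 0.07 of Psmb6. In Psma7, an alpha-ring subunit, they differed by up to 0.30, and on replicate 2 the probes deviated by 0.11 and -0.19. In Psmd11, a lid subunit, the deviations differed by up to 0.31, and in Psmc1, a base ATPase, by up to 0.10. Mean levels of the 2 probes, which also reflect how strongly each binds, differed by 0.14 for Psmb6 to 5.30 for Psma7, beside a median of 2.05 over the 2749 genes with at least 2 detected probes. For Psmg4, a factor that helps to assemble the alpha ring, 1 probe was detected on all arrays at 1.56, 1.78, 1.59 and 1.83, and the other on none. The call for that gene thus rests on 1 of 2 probes.

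**Figure D3:**
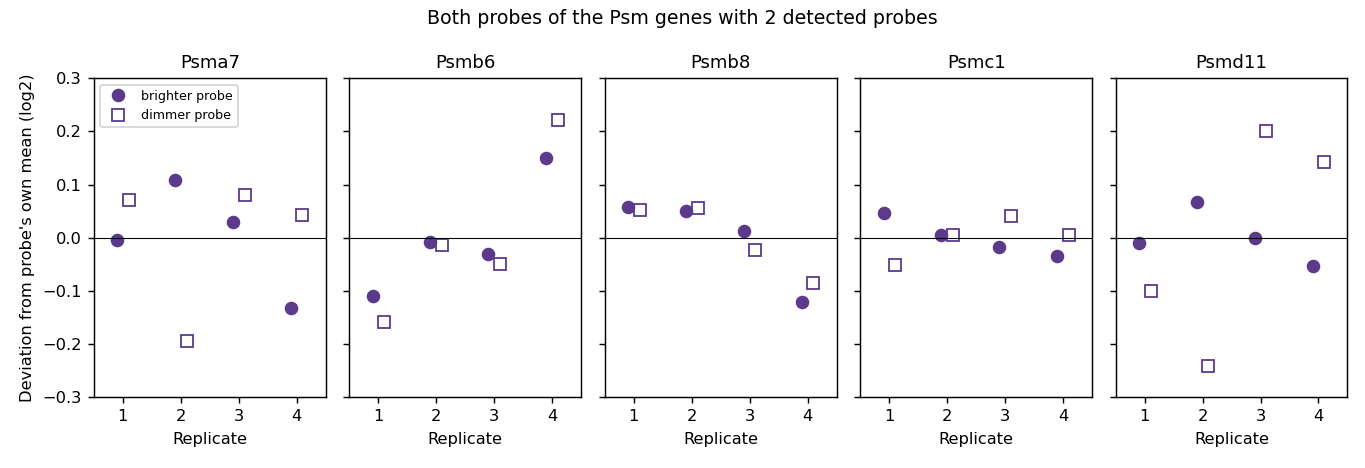
Deviation of each probe from its own mean (log2) on replicates 1 to 4, for the 5 Psm genes with 2 detected probes; filled circles are the brighter and open squares the dimmer probe. The probes of Psmb6 and of Psmb8 move together, whereas those of Psma7 and Psmd11 differ by up to 0.30 and 0.31.

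The alpha ring forms the gate of the core, and all 7 of its constitutive genes, Psma1 to Psma7, were detected, with SDs from 0.04 to 0.11. Psma4 read 2.11, 2.29, 2.12 and 2.10, and its value on replicate 2 stood above 3 others that lay close together. By Dixon's 95% limit, 3 detected members had 1 replicate apart from the rest, Psma4 and the lid subunits Psmd6 and Psmd12, beside 5.12% of all detected genes. Psma6 had a mean of 4.76 ± 0.11, and Psma3 a mean of -0.62 ± 0.08. The Psma3l probe lies 0.999 kb from the Psma3 probe on chromosome 6, and it read 2.64 ± 0.06. It deviated by -0.09 on replicate 4, the same as the Psma3 probe, but by -0.01 on replicate 1 where Psma3 deviated by 0.11. The 4 structural beta subunits Psmb1, Psmb2, Psmb3 and Psmb4, which have no active site, were also detected. Psmb1 read 2.08, 2.17, 2.28 and 2.50, with replicate 4 the highest, and had the largest SD of any detected member, 0.18. The other 3 had SDs of 0.05 to 0.06.

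The regulatory particle was detected in full for the genes on the array. The 6 ATPases of the base, Psmc1 to Psmc6, had a median SD of 0.05. Psmc6 read -1.33, -1.32, -1.30 and -1.38 and Psmc5 read 4.98, 4.99, 5.00 and 4.93. Both varied by 1.05-fold, among the narrowest ranges of any member. Psmd1, a scaffold of the base, read 4.65, 4.67, 4.73 and 4.70, with an SD of 0.03. These 3 genes had the smallest SDs among detected members, and replicate 4 was the lowest in both ATPases. Psmd2, the other large scaffold, had a mean of 4.28 ± 0.04, and the ubiquitin receptor Psmd4 a mean of 2.56 ± 0.07.

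All 11 non-ATPase subunits were detected, with a median SD of 0.07. Psmd12 read 2.81, 2.80, 2.79 and 2.69, and Psmd6 read 2.47, 2.50, 2.49 and 2.35. In both of these genes replicate 4 stood below 3 close values. Psmd14, the deubiquitinase that removes ubiquitin from substrates, had the largest SD of this class, 0.15, with a mean of 1.03, and was highest on replicate 3. Psmd13 followed with 0.13 and was highest on replicate 4. Subunits of the same lid therefore did not share 1 ordering of the replicates.

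Assembly factors are not part of the finished particle. The base chaperones Psmd5, Psmd9 and Psmd10 were detected at -1.26 ± 0.11, 0.33 ± 0.08 and -2.93 ± 0.07. The core chaperones Psmg1, Psmg2 and Psmg4 were detected with a median SD of 0.14. Psmg2 read -0.82, -0.88, -0.54 and -0.64, higher on replicates 3 and 4 than on the other two, and had the second largest SD among detected members, 0.16. Psmg3 is on the array under a transcript identifier and not under its symbol, so it is not counted. Its 2 probes were detected on 4 and on 3 arrays.

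Of the other activators, Psme3 encodes the nuclear PA28 gamma and Psme4 the large activator PA200. Psme3 read 0.18, 0.44, 0.09 and 0.18, with replicate 2 the highest and an SD of 0.15, the third largest among detected members. Psme4 had a mean of -1.07 ± 0.07. Psmf1, which encodes a protein that inhibits the core in vitro, had a mean of 1.31 ± 0.05. The range of Psme1 minus Psme3 was 0.46 and that of Psme2 minus Psme3 was 0.35, each with its lowest value on replicate 2. Psme2 minus Psme1 had a range of 0.27.

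The tissue-restricted core subunits were the only members not detected on all arrays. Psma8 read -5.13, -4.59, -5.61 and -5.12 and was above background on 3 arrays, with replicate 3 the exception. The lowest level of any detected probe was -6.62, -6.34, -6.19 and -5.59 on replicates 1 to 4, so these values lie near the floor. Psmb11 has 2 probes. The brighter read -6.03, -6.79, -5.27 and -6.53 and was above background on replicate 3 alone, and the dimmer was above background on none. The brighter lies 14.8 kb from the Psmb5 probe on chromosome 15. The dimmer lies there from 32703349 to 32703408, and its sequence is shown because it was at background on every array.
Psmb11, dimmer probe: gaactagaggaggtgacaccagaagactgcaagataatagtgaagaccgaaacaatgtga
Of the markers of other cell types, Foxn1, a regulator of thymic epithelium, was above background on 2 arrays and Sftpc, a surfactant protein gene, on 1. The epithelial markers Epcam, Sftpb, Cdh1, Krt8 and Krt18 were above background on none, so 0 of 7 were detected on all 4. Of 8 lymphocyte markers 2 were detected, Cd3d and Cd79a, and Cd3e, Cd3g, Cd8a, Cd79b and Ms4a1 were above background on no array. All 8 macrophage markers were detected, beside 54.9% of all named genes.

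The spread of the proteasome genes between replicates was small. The median SD of the 48 detected members was 0.07, beside 0.11 for all 10342 detected genes, and 35 members had an SD under 0.1, beside 43.1%. Brighter genes vary less on arrays, and 41 of the members lay above level 0. Among genes above that level the median SD was 0.07 for members and 0.09 for all 3863 genes, and 31 members had an SD under 0.1, beside 61.4%. The inducible genes had SDs from 0.06 to 0.12 and the constitutive genes from 0.03 to 0.18, so the classes overlapped. The widest fold range was 1.34 in Psmb1, and the median fold range was 1.12 for members, beside 1.19 for all detected genes.

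Of the 53 member probes tested, 0 passed limma's variance test at an adjusted p of 0.05, beside 0.17% of the 19400 detected probes. At an unadjusted p under 0.05 the count was 0, beside 6.5%. The smallest p of any member, for Psmb1, was 0.0758, with an adjusted p of 0.864 by limma's variance test. With 4 arrays the test can miss real variation, so a lack of calls does not show that the levels were equal.

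**Figure D4:**
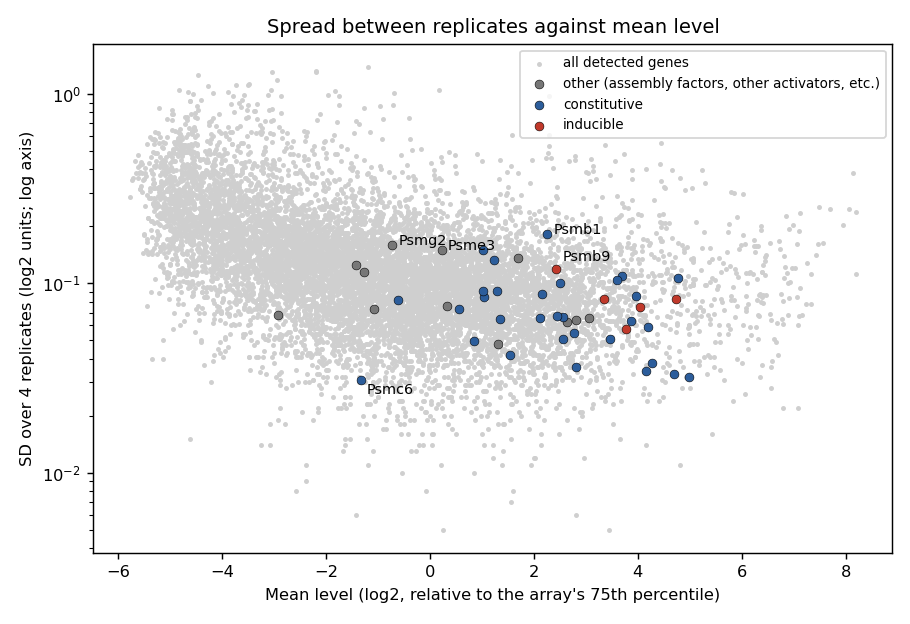
SD over 4 replicates (log2 units, log axis) against mean level (log2 relative to the 75th percentile of the array) for all 10342 detected genes in light grey, with the detected Psm genes in red (inducible), blue (constitutive) and dark grey (other). The 5 inducible genes lie between SDs of 0.06 and 0.12, within the cloud of all genes, and Psmb1 is the highest member at 0.18.

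Genes around the proteasome were taken from lists drawn up with it. All 9 matched partner genes were detected, and Paaf1 and Ecpas were not matched. So were 7 regulators, 8 genes of ubiquitin supply and 12 genes of interferon-gamma signalling and MHC class I presentation. Over all named genes the share detected was 54.9%. In these lists 0 genes passed the variance test, beside 0.17% of all detected probes, so the count of 0 is near that share. Pomp, the maturation factor of the core, read 4.99, 5.01, 4.96 and 5.03. Adrm1, a ubiquitin receptor of the base, read -3.75, -3.52, -3.62 and -3.50. The transcription factor Nfe2l1, known to raise proteasome genes when the proteasome is inhibited, read -1.51, -1.47, -1.74 and -1.69, with replicates 3 and 4 below the others. Nfe2l2, the oxidative stress regulator, read 1.93, 1.89, 1.74 and 1.64, in the same split.

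The interferon list holds genes known to be induced with these subunits or to act in the same pathway. Irf1, a transcription factor induced by interferon-gamma, read 0.62, 0.60, 0.51 and 0.36. It was lowest on replicate 4, as were Psmb8, Psmb9 and Psme2. Nlrc5, the MHC class I activator, read -0.62, -0.46, -0.69 and -0.50, and was lowest on replicate 3. Tap1, a subunit of the peptide transporter, read -1.68, -1.51, -1.56 and -1.33 and was highest on replicate 4. Of the 12 genes of this list 8 were lowest on replicate 4, beside 28.3% of all detected genes. In the other lists the counts were 0 of 8 for ubiquitin supply, 4 of 9 for partners and 2 of 7 for regulators. They were 2 of 8 for macrophage markers and 0 of 2 for detected lymphocyte markers. The low value on replicate 4 was thus shared by some genes of the interferon list and not by Tap1, Nlrc5, Jak1 and Tapbp. Tap2, the other transporter subunit, read 1.12, 1.38, 1.08 and 0.86 and was lowest on replicate 4, so the transporter subunits differed.

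Promoters were read because the classes are known to answer to different factors. RefSeq windows on GRCr8, 250 bases before to 50 after the gene start, were at hand for 43 of the 50 members, including all 5 inducible and 27 constitutive genes. Motifs were sought on both strands of the whole window, and stretches are printed only where they lie before the start. The interferon-stimulated response element was written as GAAA, 2 bases of any kind and GAAA again. It was present in 3 of 5 inducible and in 3 of 27 constitutive windows, beside 3.92% of all 33469. The capitals mark the match in each 30-base stretch, read on the strand of the gene.
Psmb10, chr19:50743346-50743375, minus strand: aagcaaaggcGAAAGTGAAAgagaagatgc
Psmb10, chr19:50743293-50743322, minus strand: ctaagtggggggtGAAAGCGAAAgtaggaa
Psme2, chr15:33052785-33052814, minus strand: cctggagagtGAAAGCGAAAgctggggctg
Psmb3, chr10:83193634-83193663, plus strand: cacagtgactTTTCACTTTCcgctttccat
The third inducible match, in Psmb8, crosses the gene start and is not printed. Constitutive windows with a match were those of Psma4, Psmb3 and Psmd7. The interferon-gamma activated site TTCNNNGAA was present in 1 of 5 inducible windows, that of Psmb8, in 3 of 27 constitutive ones and in 8.87% of all.
Psmb8, chr20:4657252-4657281, minus strand: agctgTTCCCAGAAgatgcccctcgccccg

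The antioxidant response element TGACNNNGC, the kind of site used by NFE2L1 and NFE2L2, was present in 0 of 5 inducible and 6 of 27 constitutive windows, beside 12.1% of all. These included the constitutive catalytic genes Psmb5 and Psmb6, whose stretches are shown as the counterparts of the inducible ones.
Psmb5, chr15:32047420-32047449, minus strand: cgtgaagctgTGACGTCGCggcgttgcccg
Psmb6, chr10:55737854-55737883, plus strand: ctaaagagagTGACGGAGCgctttacgacc
The CCAAT box was present in 2 of 5 inducible and 14 of 27 constitutive windows, beside 37.5% of all. In Psmb2 a CCAAT match and an antioxidant match share a base, and no printed stretch holds matches to different motifs. The motifs were chosen after levels had been seen. A match describes letters in a window, and the windows of Psmb9 and Psme1 held no match to the interferon motifs as written.

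**Figure D5:**
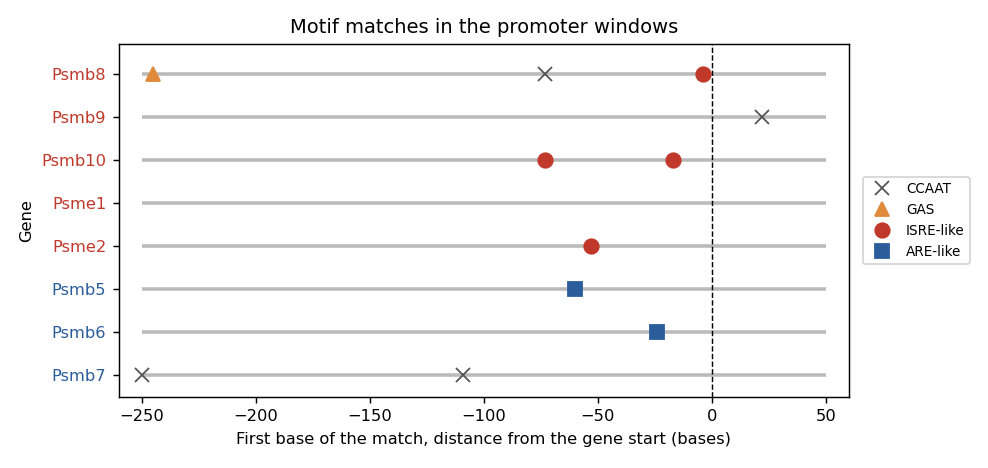
Position of motif matches in the promoter window of the 5 inducible and 3 constitutive catalytic genes, as distance in bases from the gene start, from 250 before to 50 after; symbols mark the first base of each match. The interferon-stimulated response element appears in Psmb8, Psmb10 and Psme2, and the antioxidant motif TGACNNNGC in Psmb5 and Psmb6.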

How the data were processed

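Cy3-labelled RNA of 4 NR8383 cultures was put on Agilent one-colour arrays. The submitters' processing notes name Agilent Feature Extraction, version 11.0.1.1. The deposited values are fluorescence intensity per spot: the background-corrected processed signal, with mean and local background signals, on a linear scale, per the file headers, with no scaling from array to array. Detection and outlier flags were taken over from the files.

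Spots with a non-uniformity or population outlier flag were dropped. The processed signal was put on a log2 scale, the 75th percentile of each array's non-control spots was subtracted, and repeat spots were averaged. A probe counted as detected on an array when more than 0.5 of its spots were well above background. A gene took the value of its brightest detected probe. Of the probes, 57 carry a member's name in the files, 23809 were named by accession through a RefSeq table of GRCr8, 5118 by symbol and 351 by an older symbol. Probe positions come from the files and refer to rn4.

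The variance test used limma (3.58.1, under R 4.3.3), with an intercept only and a robust prior trended on signal, and Benjamini-Hochberg adjustment over all 19400 detected probes at 0.05. The scripts were tested on simulated data. Alternatives covered another detection flag, 2 arrays, every probe required, naming by accession, flagged spots kept, other scalings, normexp with offset 50, no filter on dim probes, other priors, a threshold of 0.01, and each replicate left out. All 4 arrays were on 1 slide and in 1 scan, so neither could be tested as a batch. Python 3.11.15, numpy 2.4.6 and pandas 2.3.3 were used.

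The members and lists were chosen with earlier results of these data known. The motifs, the printed probes and the pairs of genes were chosen after values had been seen. Genes given with a value per replicate are the inducible genes and their catalytic counterparts, members not detected, members whose probes differ in detection, the 3 of largest and 3 of smallest SD, those with 1 replicate apart from 3 others, and a few genes around the proteasome. Some genes that this rule names are not reported here. Examples beyond these were chosen after their values were seen.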

Additional observations from a re-analysis of the deposited data

Results flagged for a closer look

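In 4 of 61 results examined, 1 replicate stood apart from the other 3, with a gap to the nearest value that passed Dixon's 95% critical value as a share of the whole range. Chance alone marks about 1 in 20 such groups, and 5.12% of all detected genes met the same rule, so a share of 6.56% is close to the background.

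The alpha-ring gene Psma4 had a ratio of 0.913, with replicate 2 at 2.29 above the others at 2.10 to 2.12. The lid subunit Psmd12 had a ratio of 0.847, and the lid subunit Psmd6 a ratio of 0.84, each with replicate 4 below the others. The difference between the inducible and constitutive classes in median deviation had a ratio of 0.903, with replicate 4 at -0.08 against 0.03 to 0.04. None of these genes passed limma's variance test, in which the adjusted p was 0.996 for Psma4 and Psmd6 and 0.997 for Psmd12.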

How the results depend on the processing

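Detection counts kept within 1.5 times of the reported values under all 9 alternatives run for each, a limit that counts this close to full could not pass upward. The count of members lay between 47 and 50, and those of inducible and constitutive genes stayed at 5 and 31. Over all named genes the share detected ranged from 47.2% to 65.5%. Requiring every probe of a gene left out Psmg4 beside Psma8 and Psmb11, and the positive and significant flag detected all 50 members, beside 65.5% of all genes. Under all 14 alternatives of the variance test 0 member probes passed, but several could hardly have given another count. The test called 0 probes of any gene without the robust step of the prior, without its trend and without replicate 3. With spike-in scaling it called 1 of 19400. The stricter threshold could not pass a member, since none passed the reported one. The remaining alternatives called from 29 of 19400 probes, with quantile normalization, to 1121 of 45588, with no filter on dim probes. At an unadjusted p under 0.05 in this test there were 2 member probes with no filter on dim probes and 1 without replicate 3. The median SD of detected members was 0.507 with spike-in scaling, where that of all detected genes was 0.515, and it lay between 0.0619 and 0.0771 with 1 replicate left out. With spike-in scaling the median of all detected genes deviated by 0.46, 0.40, -0.31 and -0.54 on replicates 1 to 4 and that of the members by 0.43, 0.42, -0.30 and -0.57, so a replicate called high or low for a single gene is so relative to the other genes of its array. The range of the inducible minus constitutive difference was 0.0653 to 0.126 with 1 replicate left out, and lowest without replicate 4. Replicate 4 was the lowest under each of the other alternatives with 4 replicates. With 1 replicate left out, the range of Psmb9 minus Psmb6 was 0.187 to 0.536, that of Psmb8 minus Psmb5 0.0735 to 0.336 and that of Psmb10 minus Psmb7 0.0855 to 0.157. The cause was not tested. No paired analysis was possible because the samples form a single group. Signal over background limits what can be said of Psma8 and Psmb11.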
